A study of Rattus norvegicus with 6 samples.

Results

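Interferon-stimulated genes are the genes that cells switch on when an interferon, a cytokine released on virus infection or immune activation, binds its receptor. A list of 41 such genes was read from liver arrays, and a gene counted as a member when a probe set of the array carried its symbol and no other. By that rule 38 of the 41 genes were found, on 46 of the 31042 probe sets of the array and among 14217 genes with a probe set of their own. Gbp5, Oas2 and Xaf1 were not analysed here. The 38 genes comprised 5 transcription factors, 18 antiviral effectors and 8 genes grouped as the ISG15 and ubiquitin system. The rest were 4 sensors of foreign nucleic acid and 3 GTPases induced by interferon gamma. Parp12 and Parp14, counted in that group of 8, are poly(ADP-ribose) polymerase family members rather than ISG15 or ubiquitin enzymes. Where a gene had several probe sets, the brightest over all arrays stood for it.

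Liver RNA had been hybridized from BioBreeding rats of 3 groups, each represented by 2 arrays. The lyp mutation, a frameshift in Gimap5, is carried on both chromosomes by BBDR.lyp/lyp rats, which lack most T cells and develop spontaneous autoimmune diabetes on an otherwise diabetes-resistant background. These rats were sampled after the onset of hyperglycemia (post-hyperglycemia, labelled 55 days of age) and before it (pre-hyperglycemia, labelled 50 days). BBDR.+/+ rats carry 2 normal copies of the gene, stay normoglycemic and were labelled 55 days, each age being given to within 5 days. The post-hyperglycemia and BBDR.+/+ groups therefore differed in genotype and glycemia together, and the lyp/lyp groups differed in glycemia and in labelled age, so that these factors cannot be told apart. The mutation is present in every cell of these rats, not in the liver alone. Whether the replicates came from different animals is not stated in the labels. A p-value here therefore rests on the spread within groups, which may be technical. In limma that spread was pooled over the 3 groups and drawn toward the typical spread of all probe sets.

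Type I and type III interferons signal through Jak1 and Tyk2 to a complex that holds Stat2 and Irf9 and binds the interferon-stimulated response element (ISRE) in promoters. Interferon gamma signals through Jak1 and Jak2, and promoters that it induces often hold the gamma activated site (GAS). Irf7 is itself induced and carries the response further, and Usp18 shuts it down at the receptor. In the liver, hepatocytes, Kupffer cells and infiltrating leukocytes can all respond.

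Promoters were available from RefSeq for 30 of the 38 genes (build GRCr8, 250 bases before to 50 after the start of transcription). Mx2, Ifit1, Ifit2, Rtp4, Isg15, Usp18, Dhx58 and Zbp1 had no entry. The core of the ISRE was searched as GAAANNGAAA on both strands and the GAS as TTCNNNGAA, which reads the same on both strands. Overlapping matches were counted separately, and an ISRE and a GAS may share bases. For each member 1 promoter entry was read, while the shares over all promoters count every entry, not reduced to 1 per gene. The ISRE core was found in 19 of the 30 promoters (63.3%), against 1312 of all 33469 promoter entries (3.92%). The GAS was found in 10 of 30 (33.3%), against 2970 of all promoters (8.87%). By role, the ISRE core was in 10 of 14 promoters of antiviral effectors and 3 of 6 of the ISG15 and ubiquitin group (Dtx3l, Parp12 and Parp14). It was in 2 of 2 of sensors, 3 of 3 of interferon gamma GTPases and 1 of 5 of transcription factors, where Irf7 alone held it. A match is a run of letters and was not tested for binding.

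The following 250 bases before the start are shown for Ddx60, Oas1a, Bst2 and Ifih1, called genes whose promoters hold the core. Ddx60 and Oas1a were higher in a lyp/lyp group than in BBDR.+/+, Bst2 higher after than before hyperglycemia, and Ifih1 lower than in BBDR.+/+. Mx1 and Stat2, also called, had no core in their promoters and are not shown. Capitals mark the ISRE core. Ddx60 lies at chr16:33208840-33209089 (minus strand), Oas1a at chr12:41330216-41330465 (plus strand), Bst2 at chr16:18254968-18255217 (minus strand) and Ifih1 at chr3:67683969-67684218 (minus strand). Ddx60 carried 2 separate cores, which begin 73 and 39 bases before the start. Oas1a and Bst2 each carried 2 cores that share 4 bases, beginning 41 and 35 bases before the start in Oas1a and 131 and 125 bases before it in Bst2. Ifih1 carried 1 core, 59 bases before the start.
Ddx60: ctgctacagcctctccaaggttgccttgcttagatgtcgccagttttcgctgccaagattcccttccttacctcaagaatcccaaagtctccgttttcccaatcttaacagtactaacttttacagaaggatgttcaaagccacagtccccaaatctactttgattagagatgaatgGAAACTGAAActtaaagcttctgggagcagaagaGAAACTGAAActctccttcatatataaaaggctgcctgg
Oas1a: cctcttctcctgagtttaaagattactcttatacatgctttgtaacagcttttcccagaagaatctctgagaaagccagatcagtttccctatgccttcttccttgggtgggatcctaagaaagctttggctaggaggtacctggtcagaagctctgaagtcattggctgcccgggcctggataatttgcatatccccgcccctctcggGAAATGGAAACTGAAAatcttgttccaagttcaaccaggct
Bst2: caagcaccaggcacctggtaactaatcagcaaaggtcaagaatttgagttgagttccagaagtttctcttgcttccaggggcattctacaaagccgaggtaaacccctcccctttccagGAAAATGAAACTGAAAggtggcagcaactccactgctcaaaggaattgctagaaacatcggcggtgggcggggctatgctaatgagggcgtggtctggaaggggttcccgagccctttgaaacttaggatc
Ifih1: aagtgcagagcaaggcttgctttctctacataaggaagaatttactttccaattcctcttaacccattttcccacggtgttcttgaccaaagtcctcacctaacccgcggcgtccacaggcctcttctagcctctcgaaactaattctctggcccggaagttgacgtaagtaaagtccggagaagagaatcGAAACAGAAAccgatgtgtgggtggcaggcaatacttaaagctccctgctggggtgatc

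Windows of 30 bases around 1 core are shown for 6 further genes of 4 roles, each on the strand that reads GAAA first, so that the bases between and beside the 2 GAAA blocks can be compared. The Irf7 window is chr1:205800073-205800102 (plus strand). The Ifi44 window is chr2:243303847-243303876 (plus strand). The Ifi44l window is chr2:243328622-243328651 (minus strand). The Parp12 window is chr4:68850540-68850569 (plus strand). The Gbp2 window is chr2:234005686-234005715 (minus strand). The Igtp window is chr10:42874934-42874963 (plus strand). The bases between the blocks were CT in Ifi44 and Igtp, as in both cores of Ddx60, and they differed in the other 4 windows. Ifi44 and Ifi44l each held another core, which is not shown and was not compared here.
Irf7: tgcgtctcggGAAAATGAAAcctaaactgt
Ifi44: cctgggaaatGAAACTGAAActcagtgtgc
Ifi44l: aacaggatgaGAAAAAGAAAgccaagcaga
Parp12: ggaaggaaacGAAACCGAAAgccggcccca
Gbp2: ttaagacaatGAAAGTGAAActaaaaaact
Igtp: tccaggaaccGAAACTGAAAgcagttctgg

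The liver label fitted the arrays, since the 7 hepatocyte markers measured (albumin and transthyretin among them) summed to between 95830 and 98550 units of linear signal in every array, and every one ranked at or above percentile 98.8 of all probe sets. Over all probe sets, those without a gene symbol included, 1599 were called between post-hyperglycemia and BBDR.+/+ (587 higher and 1012 lower), 677 between post- and pre-hyperglycemia (223 higher and 454 lower) and 223 between pre-hyperglycemia and BBDR.+/+ (144 higher and 79 lower). A call is a limma adjusted p under 0.05, adjusted over all 31042 probe sets. The 3' minus 5' signal of the Actb and Gapdh control probe sets, a sign of RNA integrity and labelling, was 1.74 and 1.68 on the log2 scale in post-hyperglycemia arrays, 1.09 and 0.93 in pre-hyperglycemia arrays and 1.04 and 0.78 in BBDR.+/+ arrays. With that value as a covariate, limma called 0 of the 31042 probe sets in either comparison with post-hyperglycemia arrays, and of the 38 interferon-stimulated genes it had 2 higher against BBDR.+/+ and 1 higher against pre-hyperglycemia arrays at an unadjusted p under 0.05. The part of RNA quality in the differences below cannot be told apart from that of the group.

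Interferon-stimulated genes stood higher in post-hyperglycemia livers than in BBDR.+/+ livers, with 9 of 38 called higher (23.7%) and 1 called lower (2.63%). Over all 14217 genes, limma called 2.29% higher and 1.24% lower. The 9 genes were Ddx60, Mx1, Usp18, Mx2, Ifi44l, Oas1a, Ifi44, Irf7 and Stat2, with differences between 0.44 and 1.48 on the log2 scale, and the 1 was Ifih1. The median difference of the 38 genes was 0.32, against 0.04 over all genes. Of the 38 differences 35 were positive, as were 8424 of 14217 over all genes. In 30 of the 38 genes both post-hyperglycemia arrays were above both BBDR.+/+ arrays, and in 1 both were below, where the shares over all genes were 32.4% and 18.3%. Rank product, a test that the methods name, called 5 of the 38 genes higher (Ddx60, Mx1, Usp18, Mx2 and Ifi44l), against 0.661% of all genes. The t-test that the methods also name, in place of which limma was used here, called none of the 38 after adjustment. These are bulk samples, in which more responding cells and more RNA per cell cannot be told apart.

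Array by array, the mean deviation of the 38 genes from their own means was 0.16 and 0.18 on the log2 scale in post-hyperglycemia arrays, 0.01 and -0.04 in pre-hyperglycemia arrays and -0.15 and -0.16 in BBDR.+/+ arrays. The replicates of a group lay close together and the 3 groups did not overlap. Post-hyperglycemia replicate 1 was the highest of the 6 arrays for 16 genes and replicate 2 for 14, and BBDR.+/+ replicate 1 was the lowest for 10 genes and replicate 2 for 16. The heat map of differences from the BBDR.+/+ mean shows this gene by gene.

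**Figure D1:**
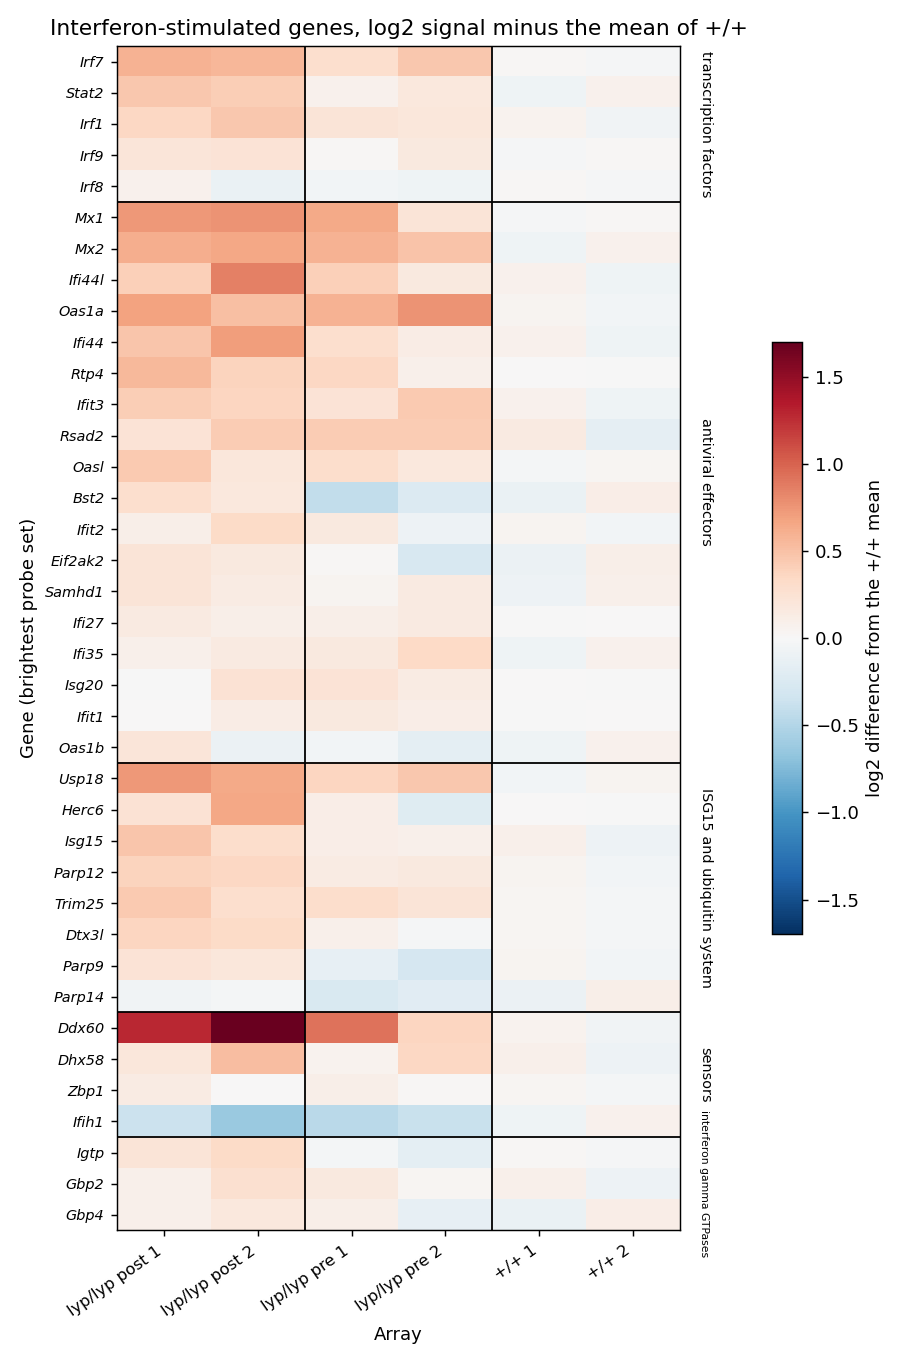
Log2 signal of the 38 interferon-stimulated genes (rows, grouped by role) in each of the 6 arrays (columns), as the difference from the mean of the 2 BBDR.+/+ arrays, with red higher and blue lower. Most rows are red in the post-hyperglycemia columns and paler in the pre-hyperglycemia columns, and Ifih1 is blue in both lyp/lyp groups.

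Among the transcription factors, Irf7 and Stat2 were called higher in post-hyperglycemia livers than in BBDR.+/+ livers. Irf7, the master regulator of type I interferon production, had log2 signals of 9.20 and 9.18 in post-hyperglycemia arrays, 8.89 and 9.07 in pre-hyperglycemia arrays and 8.63 and 8.59 in BBDR.+/+ arrays. The groups did not overlap, and the difference from BBDR.+/+ was 0.58 (SE 0.11, 1.49-fold, limma adjusted p = 0.0114). Stat2, the STAT of the type I complex, had 9.80 and 9.76 in post-hyperglycemia arrays, 9.41 and 9.52 in pre-hyperglycemia arrays and 9.27 and 9.42 in BBDR.+/+ arrays. Its post-hyperglycemia arrays were the highest, while the other groups overlapped, and the difference from BBDR.+/+ was 0.44 (SE 0.11, adjusted p = 0.0398). The second Stat2 probe set differed by 0.19 (adjusted p = 0.349). Irf9, the DNA-binding partner of Stat2, had a difference of 0.22 on its brightest probe set (adjusted p = 0.288). Its other probe set had 8.16 and 8.08 in post-hyperglycemia arrays, 7.98 and 7.90 in pre-hyperglycemia arrays and 7.62 and 7.70 in BBDR.+/+ arrays, and was called higher against BBDR.+/+ (0.47, adjusted p = 0.0278). Irf1, which answers to interferon gamma above all, differed by 0.41 (adjusted p = 0.0518), and Irf8, a factor of the myeloid lineage, by -0.02.

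Among the 18 antiviral effectors, 5 were called higher in post-hyperglycemia livers than in BBDR.+/+ livers and none lower, and all 18 differences were positive. Over all genes, limma called 2.29% higher and 1.24% lower, and 8424 of 14217 differences were positive. Mx1 and Mx2, dynamin-like GTPases that block virus replication, were both among the 5. Mx1 had log2 signals of 7.20 and 7.23 in post-hyperglycemia arrays, 7.11 and 6.68 in pre-hyperglycemia arrays and 6.45 and 6.48 in BBDR.+/+ arrays, a difference of 0.75 from BBDR.+/+ (SE 0.14, 1.68-fold, adjusted p = 0.0103). Mx2 had 8.12 and 8.16 in post-hyperglycemia arrays, 8.09 and 7.99 in pre-hyperglycemia arrays and 7.43 and 7.58 in BBDR.+/+ arrays, a difference of 0.64 (SE 0.11, adjusted p = 0.00703). In both genes every lyp/lyp array was above every BBDR.+/+ array. A second Mx2 probe set, near the bottom of the array's signal range at 3.56 to 3.94 in the 6 arrays, differed by -0.15 (adjusted p = 0.547).

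Oas1a, a synthetase that makes the 2'-5' oligoadenylates which activate RNase L, had 7.31 and 7.14 in post-hyperglycemia arrays, 7.22 and 7.39 in pre-hyperglycemia arrays and 6.67 and 6.59 in BBDR.+/+ arrays. The lyp/lyp groups overlapped each other and lay wholly above BBDR.+/+, with a post-hyperglycemia difference of 0.59 (SE 0.11, adjusted p = 0.0132). Ifi44 and Ifi44l, paralogs induced strongly by type I interferon, were also called. Ifi44 had 7.01 and 7.25 in post-hyperglycemia arrays, 6.83 and 6.66 in pre-hyperglycemia arrays and 6.62 and 6.47 in BBDR.+/+ arrays (0.59, SE 0.12, adjusted p = 0.0193). Ifi44l had 6.97 and 7.42 in post-hyperglycemia arrays, 6.97 and 6.73 in pre-hyperglycemia arrays and 6.63 and 6.49 in BBDR.+/+ arrays (0.63, SE 0.15, adjusted p = 0.0373). For both genes the groups stood in the order post-hyperglycemia, pre-hyperglycemia, BBDR.+/+, with no BBDR.+/+ array above a lyp/lyp array.

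The other 13 effectors were not called, with differences between 0.05 and 0.47. The values were 0.47 for Rtp4, a chaperone of receptor transport that also restrains viruses (adjusted p = 0.0510), 0.39 for Ifit3, 0.33 for Rsad2 (viperin) and 0.32 for Oasl. Ifit2, Bst2, Eif2ak2, Samhd1, Ifi27, Ifi35 and Isg20 had 0.22, 0.23, 0.19, 0.18, 0.13, 0.12 and 0.12. Ifit1, which binds viral RNA lacking the host's cap methylation, was at 0.06, and Oas1b, among the dimmest 5% of probe sets, at 0.05. Ifit2 had a second probe set on which post-hyperglycemia arrays were the lower ones (-0.39, adjusted p = 0.0957).

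In the ISG15 and ubiquitin group, Parp12 and Parp14 included, 1 of 8 genes was called higher. Usp18, the protease that removes ISG15 from proteins and blocks the type I receptor, had 8.24 and 8.14 in post-hyperglycemia arrays, 7.87 and 7.96 in pre-hyperglycemia arrays and 7.46 and 7.55 in BBDR.+/+ arrays. The 3 groups were fully separated, and the difference from BBDR.+/+ was 0.69 (SE 0.10, 1.61-fold, adjusted p = 0.00447). Parp12, a poly(ADP-ribose) polymerase family member that restrains viruses, had 8.17 and 8.14 in post-hyperglycemia arrays, 7.93 and 7.95 in pre-hyperglycemia arrays and 7.83 and 7.75 in BBDR.+/+ arrays, and its difference of 0.37 missed the threshold (adjusted p = 0.0641). Herc6, which in mice is the ligase that joins ISG15 to proteins, differed by 0.45, Isg15 itself by 0.38, Trim25 by 0.36, Dtx3l by 0.35 and its partner Parp9 by 0.21, none of them called. In 7 of the 8 genes both post-hyperglycemia arrays were above both BBDR.+/+ arrays, where the share over all genes was 32.4%.

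Parp14 stood apart in this group, at -0.05 on its brightest probe set. On its other probe set the log2 signals were 7.28 and 7.56 in post-hyperglycemia arrays, 7.84 and 8.07 in pre-hyperglycemia arrays and 8.10 and 8.34 in BBDR.+/+ arrays. That probe set was called lower against BBDR.+/+ (-0.80, SE 0.14, adjusted p = 0.00761), with the groups in the reverse of the order that Usp18 showed. The plot of members with several probe sets puts these pairs side by side.

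**Figure D2:**
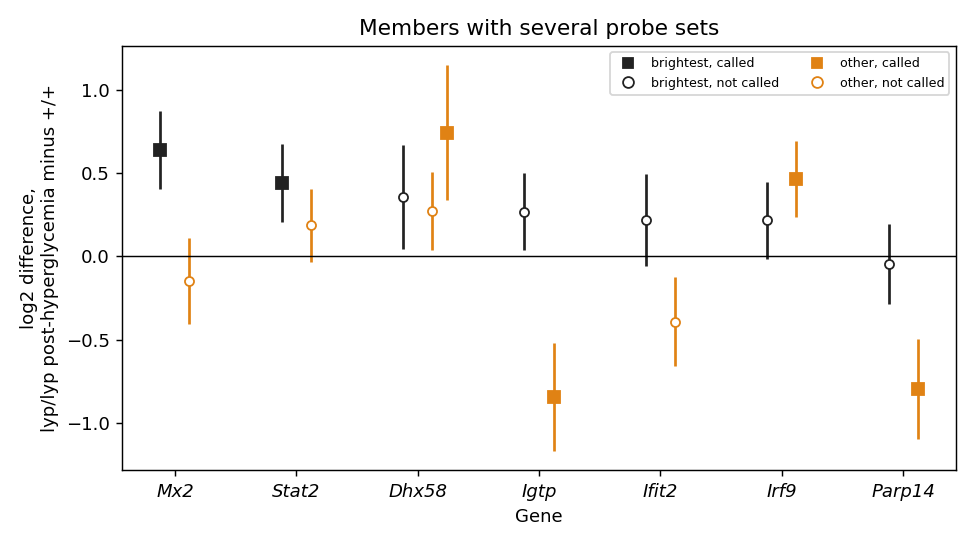
Difference between post-hyperglycemia and BBDR.+/+ arrays (log2, with 95% limma intervals) for each probe set of the 7 members that have several, with the brightest probe set in black, the others in orange and filled squares for calls. Igtp, Parp14, Ifit2 and Mx2 have an orange probe set below 0 (called for Igtp and Parp14), while the called orange probe sets of Dhx58 and Irf9 lie above 0.

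The 4 sensors gave both extremes. Ddx60, a helicase that in human and mouse cells aids the RNA sensors, had the largest difference of the 38 genes, with 6.05 and 6.45 in post-hyperglycemia arrays, 5.69 and 5.14 in pre-hyperglycemia arrays and 4.83 and 4.72 in BBDR.+/+ arrays. The groups did not overlap, and the difference from BBDR.+/+ was 1.48 (SE 0.18, 95% interval 1.08 to 1.87, 2.78-fold, adjusted p = 0.00145). Ifih1, the double-stranded RNA sensor MDA5, went the other way, with 6.43 and 6.17 in post-hyperglycemia arrays, 6.35 and 6.42 in pre-hyperglycemia arrays and 6.72 and 6.88 in BBDR.+/+ arrays. The lyp/lyp groups overlapped and lay below BBDR.+/+, and the post-hyperglycemia difference was -0.50 (SE 0.12, 1.41-fold lower, adjusted p = 0.0372).

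Dhx58 (LGP2), which tunes the same pathway, differed by 0.36 on its brightest probe set (adjusted p = 0.193) and by 0.27 on a second. Its remaining probe set had 5.22 and 5.91 in post-hyperglycemia arrays, 5.13 and 4.95 in pre-hyperglycemia arrays and 4.84 and 4.80 in BBDR.+/+ arrays and was called higher (0.74, SE 0.18, adjusted p = 0.0431). Zbp1, a sensor of Z-form nucleic acid, differed by 0.07. In the plot of 6 genes, Ddx60 and Ifih1 lean in opposite directions.

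**Figure D3:**
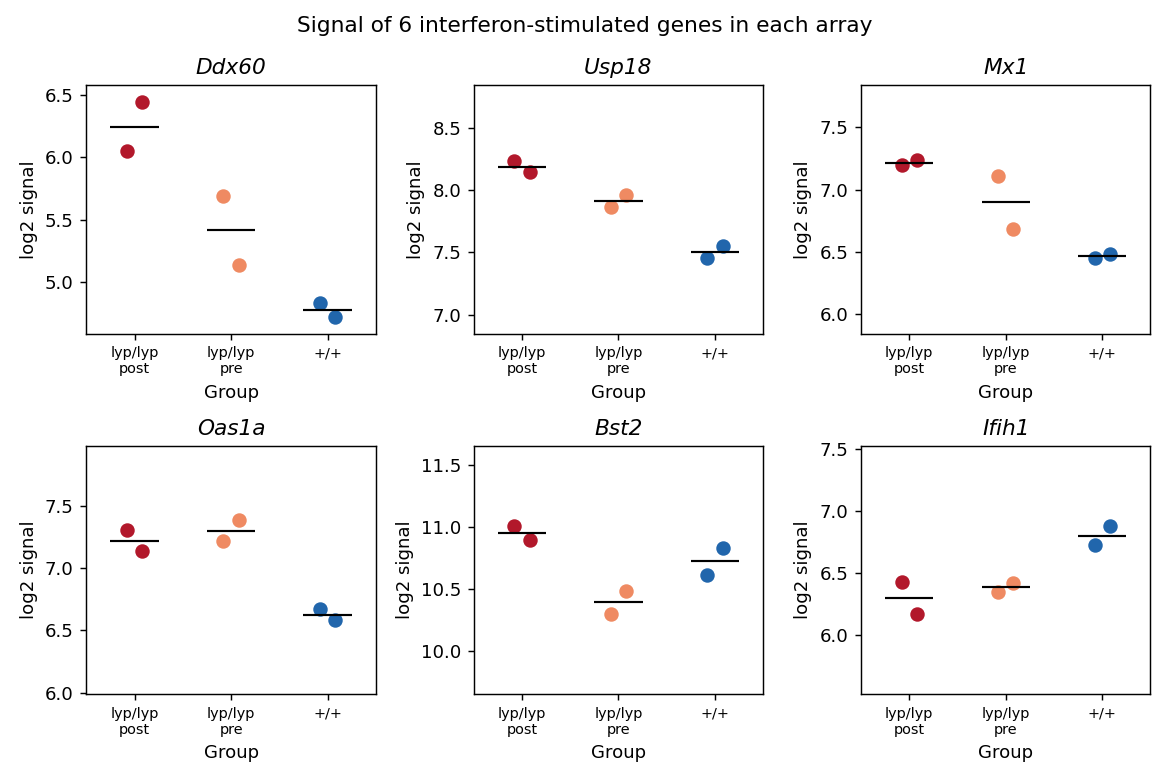
Log2 signal of Ddx60, Usp18, Mx1, Oas1a, Bst2 and Ifih1 in each array, with post-hyperglycemia, pre-hyperglycemia and BBDR.+/+ from left to right, 1 point per array and a bar at each group's mean. Ddx60, Usp18 and Mx1 step down across the 3 groups, Oas1a is alike in both lyp/lyp groups, Bst2 is lowest before hyperglycemia and Ifih1 is highest in BBDR.+/+.

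None of the 3 interferon gamma GTPases was called on its brightest probe set, where limma had an unadjusted p under 0.05 for 1 of them (Igtp) and rank product called 0. Igtp (Irgm3), an immunity-related GTPase of the phagosome, had 8.74 and 8.84 in post-hyperglycemia arrays, 8.49 and 8.36 in pre-hyperglycemia arrays and 8.54 and 8.51 in BBDR.+/+ arrays, a difference of 0.27 (adjusted p = 0.186). Its other probe set had 6.25 and 6.37 in post-hyperglycemia arrays, 6.76 and 6.90 in pre-hyperglycemia arrays and 6.92 and 7.39 in BBDR.+/+ arrays and was called lower (-0.84, SE 0.15, adjusted p = 0.00867). The probe sets of Igtp thus differed in sign. Gbp2, a guanylate-binding protein that attacks the vacuoles of pathogens, had 7.58 and 7.77 in post-hyperglycemia arrays, 7.66 and 7.52 in pre-hyperglycemia arrays and 7.58 and 7.41 in BBDR.+/+ arrays (0.18, adjusted p = 0.439), with the post-hyperglycemia arrays just above the BBDR.+/+ arrays and overlapping the pre-hyperglycemia arrays. Gbp4 differed by 0.13. Over all 8 further probe sets of members, 2 were called higher and 2 lower, and over all 31042 probe sets of the array 587 were called higher and 1012 lower.

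Most of the 10 genes called between post-hyperglycemia and BBDR.+/+ livers lost their call when certain single arrays were left out. Their differences stayed at 0.56 to 0.59 for Irf7 and 0.73 to 0.77 for Mx1, and ranged from 0.41 to 0.86 for Ifi44l. Each such fit also held fewer arrays, and the part of that in the lost calls was not tested. Usp18 (0.64 to 0.73) and Ddx60 (1.28 to 1.67) kept their call with any 1 array left out. Leaving out BBDR.+/+ replicate 1 left 2 of the 38 genes called and replicate 2 left 3, and leaving out post-hyperglycemia replicate 2 left 5. The adjusted p of Irf7 became 0.054 without post-hyperglycemia replicate 1, 0.0628 without BBDR.+/+ replicate 1 and 0.118 without replicate 2, and that of Oas1a 0.0762, 0.0605 and 0.141. Without post-hyperglycemia replicate 2, BBDR.+/+ replicate 1 or BBDR.+/+ replicate 2 it became 0.0519, 0.0751 and 0.102 for Mx1, 0.112, 0.0629 and 0.191 for Ifi44, 0.192, 0.112 and 0.258 for Ifi44l, and 0.189, 0.0913 and 0.260 for Ifih1. Mx2 lost its call without BBDR.+/+ replicate 1 (0.0649). Stat2 lost it without any of the 4 arrays compared (0.109 to 0.198). The direction of each of the 10 genes was the same in all of these fits.

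Between post- and pre-hyperglycemia livers of lyp/lyp rats, 2 of the 38 genes were called higher (5.26%) and 0 lower, where limma called 0.703% of all genes higher and 0.668% lower. Before adjustment, 13 genes passed a p of 0.05 as higher and 0 as lower, where the shares over all genes were 7.52% and 5.89%. Rank product called 1 gene, Ddx60, against 0.464% of all genes. The median difference of the 38 genes was 0.17, against 0.01 over all genes. Both post-hyperglycemia arrays were above both pre-hyperglycemia arrays in 20 genes and below in 1, Ifi35, against shares of 25.6% and 20.5% over all genes. The genes called were Ddx60 (0.83, SE 0.18, 1.78-fold, adjusted p = 0.0408) and Bst2 (0.56, SE 0.12, 1.47-fold, adjusted p = 0.0396).

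Bst2, the tetherin that holds budding virus to the cell surface, had 11.01 and 10.90 in post-hyperglycemia arrays, 10.30 and 10.49 in pre-hyperglycemia arrays and 10.62 and 10.83 in BBDR.+/+ arrays. The pre-hyperglycemia arrays were the lowest, unlike in Ddx60, and the pre-hyperglycemia difference from BBDR.+/+ was -0.33 (adjusted p = 0.295). Bst2 lost its call without any 1 of the 6 arrays (adjusted p 0.0607 to 0.162), and Ddx60 lost it without each array but pre-hyperglycemia replicate 1 (0.057 to 0.277).

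Of the genes called against BBDR.+/+, the difference from pre-hyperglycemia had a 95% interval of 0.05 to 0.51 for Usp18, 0.02 to 0.62 for Mx1, 0.09 to 0.56 for Stat2, 0.12 to 0.66 for Ifi44 and 0.01 to 0.68 for Ifi44l, none of them called. The interval was -0.03 to 0.44 for Irf7, -0.13 to 0.34 for Mx2, -0.33 to 0.17 for Oas1a and -0.35 to 0.18 for Ifih1. Herc6 (0.49), Parp9 (0.43) and Igtp (0.36) were not called either (adjusted p 0.130, 0.0701 and 0.117). All 8 genes of the ISG15 and ubiquitin group and all 5 transcription factors had positive differences, as did 13 of the 18 antiviral effectors. Over all genes, 7598 of 14217 differences were positive. On the plot of differences the 2 comparisons stand side by side. They share the post-hyperglycemia arrays.

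**Figure D4:**
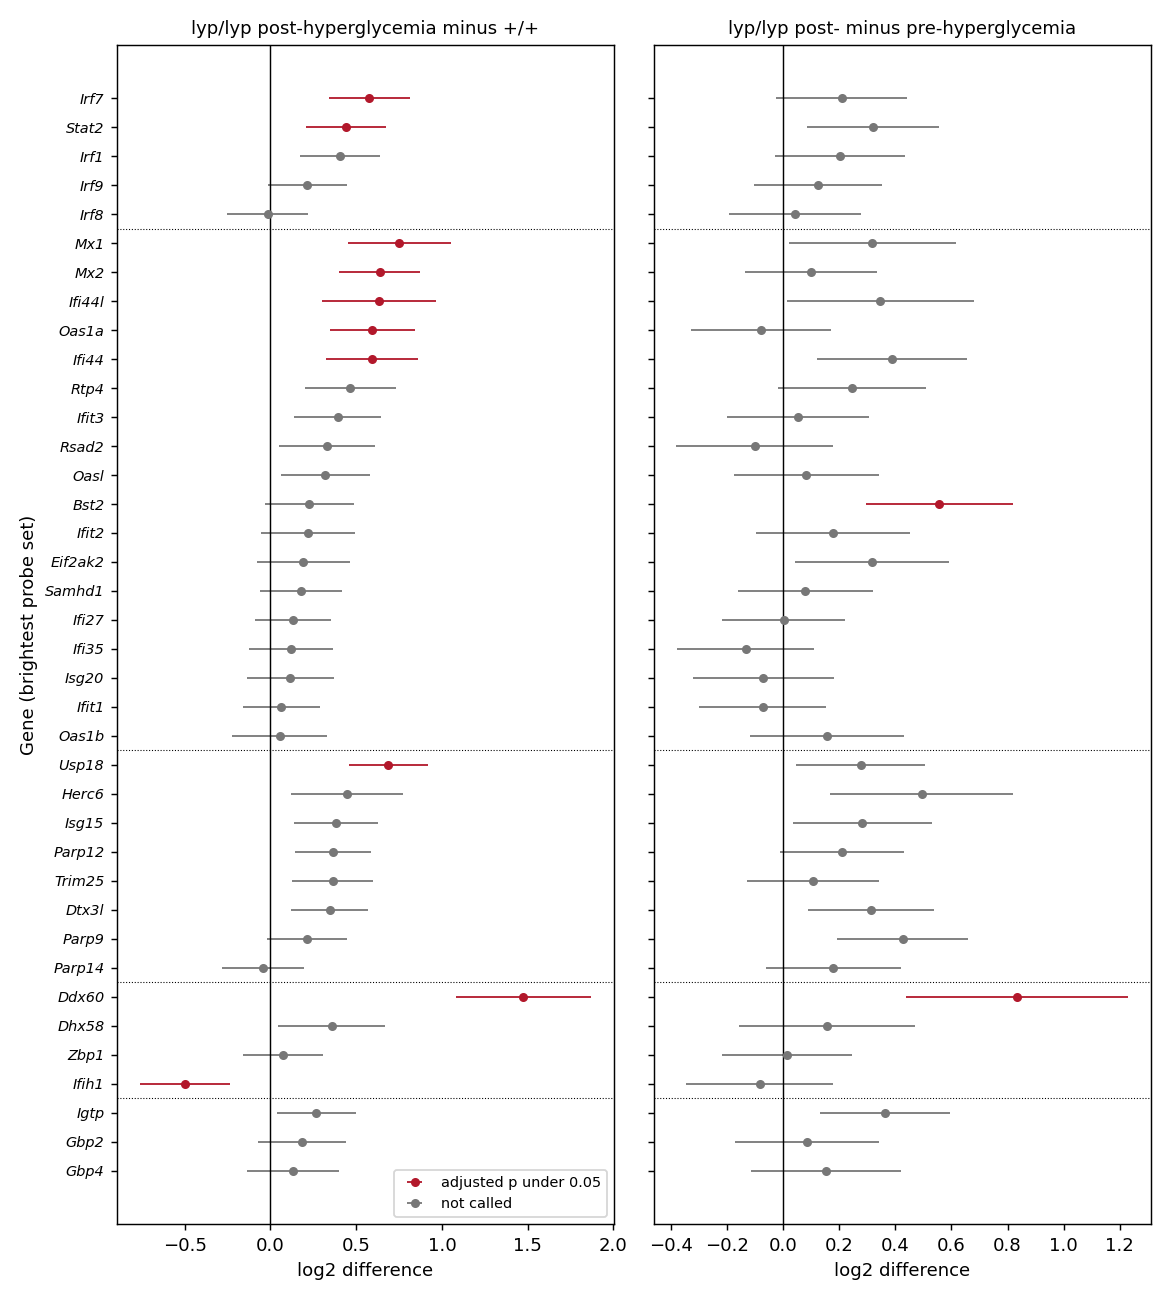
Difference in log2 signal of the 38 genes between post-hyperglycemia and BBDR.+/+ arrays (left) and between post- and pre-hyperglycemia arrays of lyp/lyp rats (right), as points with 95% limma intervals and red for an adjusted p under 0.05. On the left 9 genes are red above 0 and Ifih1 below 0, and on the right Bst2 and Ddx60 are red.

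Between pre-hyperglycemia lyp/lyp and BBDR.+/+ livers, which differ in genotype and labelled age, 1 of the 38 genes was called higher (2.63%) and 0 lower, where limma called 0.584% of all genes higher and 0.218% lower. Before adjustment, 10 genes passed a p of 0.05 as higher and 2 as lower (Ifih1 and Bst2), where the shares over all genes were 8.48% and 3.72%. The gene called was Oas1a (0.67, SE 0.11, 1.60-fold, adjusted p = 0.0269), whose values are given above, and its adjusted p was 0.0682 to 0.283 without any 1 of the 4 arrays compared. Rank product called 3 genes higher (Oas1a, Mx2 and Ddx60), against 0.886% of all genes. For Mx2 the difference was 0.54 (adjusted p = 0.0532) and for Ddx60 0.64 (adjusted p = 0.169). The median difference of the 38 genes was 0.13, against 0.02 over all genes. Pre-hyperglycemia arrays lay wholly above BBDR.+/+ arrays in 21 genes and wholly below in 6 (Ifih1, Bst2, Parp14, Parp9, Igtp and Irf8), where the shares over all genes were 28.3% and 17.7%.

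The group means stood in the order post-hyperglycemia, pre-hyperglycemia, BBDR.+/+ in 23 of the 38 genes (60.5%), and in 25.3% of all genes. In 7 genes the order was post-hyperglycemia, BBDR.+/+, pre-hyperglycemia, and in 5 it was pre-hyperglycemia, post-hyperglycemia, BBDR.+/+. The ISRE core was in 5 of the 7 promoters available for genes called higher in post-hyperglycemia livers than in BBDR.+/+ livers, with Stat2 and Mx1 the exceptions. It was in 13 of the 22 promoters of genes not called and in that of Ifih1, the gene called lower.

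Of 96 other genes of the interferon pathway 75 had a probe set. Of these, 8 were called higher and 2 lower in post-hyperglycemia livers than in BBDR.+/+ livers. The shares over all genes were 2.29% and 1.24%. The ligand genes Ifnb1, Ifng and Ifnk were dim, with log2 signals of 2.95 to 4.81 over the 6 arrays, and none was called. The receptor genes Ifnar1, Ifnar2, Ifngr1, Ifngr2, Ifnlr1 and Il10rb differed by 0.01 to 0.27 and were not called, nor were Jak1 (-0.22) and Tyk2 (0.09). Ifna1 was not analysed here. Jak2, a kinase that serves the interferon gamma receptor beside Jak1, was called lower (-0.58, limma adjusted p = 0.0268). Cxcl9, a chemokine that interferon gamma induces, was called lower too (-0.44, limma adjusted p = 0.0303). Cxcl9 had 7.07 and 7.10 in post-hyperglycemia arrays, 7.06 and 7.08 in pre-hyperglycemia arrays and 7.53 and 7.52 in BBDR.+/+ arrays, so that both lyp/lyp groups were below BBDR.+/+.

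The 8 genes called higher included Znfx1 (0.67), a helicase that senses RNA, Plscr1 (0.67), a scramblase, and Tlr7 (0.64), the receptor for single-stranded RNA. Tlr7 was dim, with log2 signals of 3.94 to 4.74 over all arrays. The others were Apol9a (0.62), Stat3 (0.60), Cmpk2 (0.56), a mitochondrial nucleotide kinase, Sp110 (0.52) and Epsti1 (0.49). Between post- and pre-hyperglycemia livers, Nampt (0.58), an enzyme of NAD synthesis, and Nlrc5 (0.54), the transactivator of MHC class I genes, were called higher. These were 2 of the 75 genes, with 0 called lower, where limma called 0.703% of all genes higher and 0.668% lower. Nampt had 9.10 and 9.20 in post-hyperglycemia arrays, 8.59 and 8.54 in pre-hyperglycemia arrays and 9.03 and 9.14 in BBDR.+/+ arrays, so that the pre-hyperglycemia arrays were the lowest, as for Bst2. Between pre-hyperglycemia and BBDR.+/+ livers limma called 0 of the 75, and rank product also called 0. Before adjustment 10 of the 75 passed a p of 0.05 as higher and 2 as lower, to be read against the shares of 8.48% and 3.72% of all genes given above.

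Sums of markers of several other liver cell types differed between the groups too. The 8 Kupffer cell and macrophage markers summed to 11271 and 10804 units of linear signal in post-hyperglycemia arrays, 10330 and 10825 in pre-hyperglycemia arrays and 8666 and 8813 in BBDR.+/+ arrays, and 3 of them (Cd163, Clec4f and C1qa) were called higher after hyperglycemia than in BBDR.+/+. The 8 markers of neutrophils and monocytes summed to 440 and 441 in post-hyperglycemia arrays and 479 and 426 in pre-hyperglycemia arrays. In BBDR.+/+ arrays they summed to 306 and 316. S100a8, S100a9 and Ly6c were the 3 called higher after hyperglycemia than in BBDR.+/+. Cxcr2 and Ccr2 were dim, as was S100a8 in BBDR.+/+ arrays (3.73 and 3.77). Csf3r (0.23), Fcnb (0.15) and Cxcr2 (0.08) were not called. Itgam (-0.13) and Ccr2 (-0.32), not called, lay wholly below BBDR.+/+ in post-hyperglycemia arrays. S100a8 and S100a9 were also called higher in pre-hyperglycemia than in BBDR.+/+ arrays. The 5 endothelial markers summed to 3579 and 3852 in post-hyperglycemia arrays, 3880 and 3822 in pre-hyperglycemia arrays and 3361 and 3012 in BBDR.+/+ arrays, with Pecam1 called higher after hyperglycemia than in BBDR.+/+. The 8 markers of NK and cytotoxic cells summed to 485 and 486 in post-hyperglycemia arrays and 454 and 431 in pre-hyperglycemia arrays. In BBDR.+/+ arrays they summed to 413 and 401. Gzma was called higher after hyperglycemia than in BBDR.+/+ (0.76), and Ncr1 was dim in all arrays. The median difference of the 8 markers from BBDR.+/+ was 0.09, with Prf1 at 0.00, Gzmm at 0.03 and Gzmb at -0.08. The 11 T cell markers summed to 555 and 528 in post-hyperglycemia arrays, 564 and 590 in pre-hyperglycemia arrays and 635 and 646 in BBDR.+/+ arrays, with Cd8b called lower after hyperglycemia than in BBDR.+/+ and Cd3g, Cd5 and Cd28 dim in all arrays. The 4 B cell markers summed to 147 to 168 in all arrays. For plasmacytoid dendritic cells, a main source of type I interferon, 6 symbols were listed, 2 of them names of the same gene. The 2 genes measured, Tcf4 and Il3ra, summed to 376 and 388 in post-hyperglycemia arrays and 405 and 406 in pre-hyperglycemia arrays. In BBDR.+/+ arrays the sums were 335 and 315. Between post- and pre-hyperglycemia arrays Tcf4 differed by -0.23 and Il3ra by 0.21, neither called. The part of these cells in the differences of the interferon-stimulated genes was not tested.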

How the data were processed

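Liver RNA was measured on the rat array RG230 2.0 of Affymetrix. The authors quantified the scans in Expression Console and used Partek Genomic Suite to normalize, and they deposited 1 log2 value per probe set and array. Their versions, like the algorithm, were not given in the sources used here. Labels and methods name different labelling kits and differ on fasting. Normalization of this kind sets the arrays to nearly equal distributions, so a shift shared by most genes would not be seen. An array has no count depth. Precision in limma rests on the 2 arrays per group and on the spread of all probe sets.

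After 57 control probe sets were removed, 31042 remained. Symbols came from the platform annotation, in which 20826 probe sets had 1 symbol, 436 several and 9780 none, and only those with 1 were named. All 46 probe sets of members kept their symbol in a current rat gene table, and 0 columns lacked a sample. limma (3.58.1, R 4.3.3) was fitted to all 6 arrays with 1 mean per group (3 residual and 7.704 prior degrees of freedom), two-sided, with Benjamini-Hochberg adjustment over all probe sets. Intervals are at 95%. Rank product used the 4 pairwise log2 ratios of a comparison, 100 permutations and a share of false positives under 0.2. Both were tested on simulated data. Python 3.11.15 with pandas 2.3.3 and numpy 2.4.6 served the other steps.

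Members and lists were chosen with earlier results of these data known. Values per array are given for genes called in any comparison, for the 2 smallest p-values of each role against BBDR.+/+ and for genes whose probe sets differ in call or in the sign of a called difference. The other genes are given by their differences. Pathway genes were named if called, together with ligands, receptors, Jak1 and Tyk2. Median centring, quantile normalization, the brightest 60% of probe sets, the methods' t-test, the arrays of 1 comparison, an intensity trend, a replicate block, a covariate for the 3' minus 5' control difference, a gene's mean over its probe sets, and omission of each array, were tried. Replicate numbers in the labels were not taken to pair samples.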

Additional observations from a re-analysis of the deposited data

Results flagged for a closer look

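Ddx60 and Bst2 were set apart because their post-hyperglycemia and pre-hyperglycemia levels differed within lyp/lyp rats by a direct limma test. Ddx60 was 0.83 higher on the log2 scale (post-hyperglycemia arrays 6.05 and 6.45, pre-hyperglycemia arrays 5.69 and 5.14, adjusted p = 0.0408), and was higher in 2 of 2 post-hyperglycemia arrays. Bst2 was 0.56 higher (11.01 and 10.90, against 10.30 and 10.49, adjusted p = 0.0396), also in 2 of 2 arrays. Both calls were lost with the methods' t-test, with the arrays of the comparison only and with the 3' minus 5' covariate. Bst2 was also lost with rank product, and Ddx60 with quantile normalization and with the mean of a gene's probe sets. The calls also depended on single arrays, as given above. Groups of 2 arrays are too small for a check of single outlying samples.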

How the results depend on the processing

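Over the alternatives no called difference turned its sign. Calls among the 38 genes (main result 10 against BBDR.+/+, 2 between lyp/lyp groups, 1 before hyperglycemia) and the 75 pathway genes (10, 2 and 0) depended on the setting, in that order of comparisons. The covariate for the 3' minus 5' difference gave 0, 0 and 0 of the 38 genes and 0, 0 and 0 of the pathway genes, where limma had 2 higher, 1 higher, and 9 higher with 2 lower of the 38 genes at an unadjusted p under 0.05, and 3 higher, 2 higher with 2 lower, and 7 higher with 3 lower of the pathway genes. The median differences of the 38 genes then were 0.20, 0.06 and 0.14. The methods' t-test also gave 0 throughout, with 15 higher, 7 higher, and 5 higher with 1 lower of the 38 genes and 12 higher with 2 lower, 4 higher with 1 lower, and 9 higher with 2 lower of the pathway genes before adjustment. The brightest 60% of probe sets gave 16, 3 and 2 and, for the pathway, 10, 2 and 2. An intensity trend gave 16, 4 and 2, and 15, 5 and 2. Rank product gave 5, 1 and 3, and 4, 1 and 0. The arrays of 1 comparison gave 11, 0 and 1, and 10, 1 and 0. The mean of all probe sets gave 7, 1 and 1, and 8, 1 and 1. Median centring gave 12, 2 and 2, and 10, 2 and 0, and quantile normalization 9, 1 and 1, and 10, 2 and 1. The replicate block gave 13, 3 and 2, and 11, 2 and 1. Same-numbered arrays deviated together only weakly (r = 0.11, 0.142 and 0.261 across probe sets), and 2 numbers per group do not pair the samples. Leaving out 1 array gave 2 to 11, 0 to 1 and 0 to 1 of the 38 genes, and 0 to 10, 0 to 1 and 0 of the pathway genes, and a group left with 1 array was assumed to vary like the others. The cause of these shifts was not tested. With 2 arrays per group, a gene that was not called is not shown to be equal between groups.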
